A study of Mus musculus with 48 samples.

Results

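Replication-dependent histone genes encode the H1 linker histones and the H2A, H2B, H3 and H4 core histones that package newly made DNA. They were taken as the protein-coding genes of the deposited expression matrix whose symbols start with Hist1h, Hist2h, Hist3h or Hist4h. This gave 67 of 55487 genes in the matrix, and 67 of the 21823 protein-coding genes. There were 6 H1, 18 H2A, 18 H2B, 12 H3 and 13 H4 genes, and 3 pseudogenes with such symbols were left out.

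Expression was measured in 48 libraries of mouse thoracic mammary gland, in 16 groups of 3. All mice carried MMTV-rtTA, a tetracycline-controlled activator driven by a mammary tumour virus promoter, with a responder gene under a tet operator. In the MMTV-rtTA/tet-op-Esr1 mice (the Esr1 model) the responder encodes estrogen receptor alpha. In the MMTV-rtTA/tet-op-CYP19A1 mice (the CYP19A1 model) it encodes aromatase, the enzyme that makes estrogens. In each model the groups were uninduced glands at 12, 18 and 24 months of age, glands induced for 1 week at 12 and at 18 months, glands induced for 6 or 12 months and taken at 24 months, and glands induced for 18 months and taken at 30 months. The codes in the titles of the glands induced for 1 week hold the letters Doxy, read here as doxycycline. No mice without a transgene and no uninduced glands of 30 months were among the groups. An effect of the inducing drug therefore cannot be told apart from that of the transgene. MMTV drives the activator mainly in mammary epithelium, whereas whole glands were sequenced, so fewer dividing cells and less histone message per cell cannot be told apart. Titles number the biological replicates and carry a distinct code for each library, without stating what the code stands for. The tests weigh differences against the spread of these libraries, which may be technical.

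Most messenger RNAs end in a poly(A) tail, but replication-dependent histone messages end just after a short stem-loop in their 3' end. Stem-loop binding protein holds that structure, and the U7 small nuclear ribonucleoprotein guides the cut behind it. The messages are made in S phase and destroyed when DNA synthesis stops. Libraries made from total RNA, as here, read them, whereas libraries selected for poly(A) miss most of them. Mki67 encodes the Ki-67 protein of dividing cells and served as the measure of proliferation.

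The stem-loop was searched for in the GENCODE M21 transcripts as a 6-base stem around a 4-base loop. It was found in 46 of the 67 members (68.7%) and in 0.425% of all coding genes. The 46 members held 8 distinct cores. These are shown because they are the feature that sets the messages apart, and because the class of histone largely goes with the core. Capitals mark the 2 arms of the stem, and up to 5 bases are given on each side.

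Hist1h2ab: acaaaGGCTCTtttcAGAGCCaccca
Hist1h2bb: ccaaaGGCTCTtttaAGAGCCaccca
Hist2h2ac: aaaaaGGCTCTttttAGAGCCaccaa
Hist1h3g: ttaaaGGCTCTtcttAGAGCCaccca
Hist1h4h: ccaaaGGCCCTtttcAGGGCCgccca
Hist1h4i: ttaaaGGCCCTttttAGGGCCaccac
Hist1h4a: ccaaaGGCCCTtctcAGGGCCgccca
Hist1h4j: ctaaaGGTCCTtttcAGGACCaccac

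The core of Hist1h2ab was shared by 26 members, all of them H1, H2A, H2B or H3 genes. That of Hist1h4h was shared by 7 members, all H4 genes. The core of Hist1h2bb occurred in 6 members, those of Hist1h4i and Hist1h4j in 2 each, and the other 3 in 1 each. The annotated transcript ended within 60 bases of the stem-loop in 22 members and ran on for longer in 24, by up to 4884 bases in Hist1h1d. Of the 21 members without a match, 15 had no annotated transcript of 600 bases or more.

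Promoters from RefSeq (GRCm38.p6, 250 bases before to 50 after the start) matched 62 members. The letters CCAAT, on either strand, stood in 53 of these (85.5%) and in 37.4% of all promoters of that length. By class they stood in all 6 H1, 18 H2A, 16 H2B and 10 H3 promoters matched, but in 3 of 12 H4 promoters. TATAAA, on either strand, stood in 35 members (56.5%) against 13.6% of all promoters. The octamer ATTTGCAT, on either strand, stood in 7 of 18 H2A and 6 of 16 H2B promoters, in no promoter of the other classes, and in 1.74% of all promoters. The promoter of Hist1h2ab at chr13:23750838-23751137 (plus strand) holds all 3 and that of Hist1h4h at chr13:23530794-23531093 (plus strand) holds none. They are printed as the steepest member with Mki67 and the most abundant H4 member, with the motif letters in capitals. On the printed strand a match of the other strand reads ATTGG or ATGCAAAT, and in this promoter the motifs do not overlap each other.

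Hist1h2ab promoter: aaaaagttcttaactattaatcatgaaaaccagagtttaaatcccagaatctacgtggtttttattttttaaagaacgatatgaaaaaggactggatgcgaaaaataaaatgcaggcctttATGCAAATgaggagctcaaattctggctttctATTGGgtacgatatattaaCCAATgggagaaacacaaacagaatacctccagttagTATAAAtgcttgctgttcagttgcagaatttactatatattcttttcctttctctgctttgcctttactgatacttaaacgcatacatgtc
Hist1h4h promoter: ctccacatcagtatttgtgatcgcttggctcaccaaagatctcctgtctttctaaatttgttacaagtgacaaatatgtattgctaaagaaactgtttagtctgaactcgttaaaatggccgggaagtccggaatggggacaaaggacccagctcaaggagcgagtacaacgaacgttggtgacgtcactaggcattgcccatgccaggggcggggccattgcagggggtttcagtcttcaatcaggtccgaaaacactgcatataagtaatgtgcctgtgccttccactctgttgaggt

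Levels are in TPM, a unit scaled for transcript length and to the same total in each library, so they carry no depth. Each library sums to 1e+06 TPM, and nuclear coding genes took 15.1 to 36.9% of it. Ribosomal RNA was taken as a sum of gene entries that includes the coding gene Lars2, which also stayed in the nuclear coding share. The part of Lars2 in either was not separated. Ribosomal RNA so taken was over 10% in 9 libraries, 7 of them of the CYP19A1 model. The highest share was 67.2%, in uninduced CYP19A1 gland at 12 months, replicate 1. No 2 libraries held identical values. Glands held markers of luminal epithelium (78.4 to 860 TPM summed over 8 genes), of basal and myoepithelial cells (41.5 to 399 TPM over 6 genes) and of white adipocytes (1232 to 7168 TPM over 6 genes). Markers of skeletal muscle ranged from 138 to 34380 TPM over 6 genes, so that the glands carried very unequal amounts of muscle RNA.

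Summed over the 67 members, histone messages ranged from 186 to 2265 TPM, a 12.2-fold range, with a median of 752 TPM. H4 genes made up 34.9% of the summed mean TPM, H2B genes 23.3%, H2A genes 21.7%, H3 genes 10.955% and H1 genes 9.13%. The 54 Hist1 genes on chromosome 13 gave 78.0% of it and the 10 Hist2 genes on chromosome 3 gave 21.1%. The 2 Hist3 genes on chromosome 11 and Hist4h4 on chromosome 6 gave 0.463% and 0.434%. The Hist1 genes lie in 2 blocks of 23 and 31 genes that are 1487 kb apart. In mean level 31 members reached 10 TPM and 59 reached 1 TPM.

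Among H4 genes, Hist1h4h (chr13:23531050-23531519, plus strand) averaged 104 TPM and ranged from 22.6 to 221 TPM. Hist1h4m (chr13:21811746-21812147, plus strand) averaged 60.1 TPM. Of H2A genes, Hist2h2aa2 (chr3:96239749-96240276, minus strand) was the most abundant of all members at 126 TPM, with a range of 39.4 to 228 TPM. Every 75-base stretch of Hist2h2aa2 also occurs in another gene, Hist2h2aa1 among them. Hist2h2aa1 was listed at 0.132 TPM on average, so the share of the 2 copies is uncertain. Hist2h2ac followed at 16.3 TPM.

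The leading H2B genes were Hist2h2bb (33.5 TPM) and Hist1h2bc (23.6 TPM). Hist2h3b (14.9 TPM) and Hist1h3e (14.7 TPM) led the H3 genes. Of the linker histones, Hist1h1c (44.2 TPM) and Hist1h1e (24.7 TPM) were highest. Exons of Hist1h1e overlap those of Hist1h2be on the same strand, so these 2 may share reads.

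The genes with testis forms of histones were at or near 0. Hist1h2aa was listed at 0 in all 48 libraries, Hist1h2ba averaged 0.00229 TPM and Hist1h1t, the testis linker histone, 0.0885 TPM. These 3, with Hist2h2aa1 and Hist2h3c1, did not reach 1 TPM in 3 libraries, and so 62 of the 67 members were tested. In 28 members more than 50% of the 75-base stretches, the length of a read, also occur in another gene, and in 6 none do.

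The coefficient of variation over the 48 libraries set the members apart. Among those with a mean of at least 1 TPM it was lowest for Hist1h2be (0.303), Hist2h4 (0.318) and Hist1h1c (0.326). It was highest for Hist1h2ap (1.61), Hist1h2ao (1.301) and Hist1h1b (1.06). Hist1h2ap and Hist1h2ao are near-identical H2A genes, and in 33 of 48 libraries the one was listed at 0 while the other had at least 1 TPM. Against Mki67, on log2(TPM + 1), Hist1h2ao alone had Pearson's r = 0.57 and Hist1h2ap alone 0.48, but their sum had 0.96 (48 libraries). Values of either gene alone are therefore uncertain.

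The order of the 16 groups by summed histone level ran from Esr1 glands induced for 1 week at 12 months down to CYP19A1 glands of the same age and induction. The 3 Esr1 libraries of that group had 2265, 1922 and 1412 TPM (1866 ± 429, mean ± SD, n = 3). The 3 CYP19A1 libraries had 279, 273 and 710 TPM (420 ± 250, n = 3). These 2 groups did not overlap, and in TPM the 7 highest group means were all of the Esr1 model. Ribosomal RNA took 36.7 to 49.8% of the 3 CYP19A1 libraries and 0.0159 to 0.0727% of the 3 Esr1 libraries, and its part in the order was not tested. As a share of nuclear coding TPM, the same Esr1 group stayed first (0.549%), but the lowest means were those of CYP19A1 glands induced for 6 months (0.190%), Esr1 glands at 30 months (0.196%) and CYP19A1 glands induced for 1 week at 18 months (0.200%). CYP19A1 glands induced for 1 week at 12 months had 0.211% on that scale, and uninduced CYP19A1 glands at 12 months (0.356%) stood just above their Esr1 counterparts (0.353%).

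Uninduced Esr1 glands had 475, 1837 and 1132 TPM at 12 months, 1807, 2234 and 591 TPM at 18 months, and 602, 1179 and 1980 TPM at 24 months. The groups overlapped fully, and their means were 1148 ± 681, 1544 ± 853 and 1254 ± 692 TPM. Mki67 in the same libraries was 0.80, 15.4 and 5.43 TPM, then 14.2, 19.6 and 3.95 TPM, then 3.47, 4.85 and 9.05 TPM. Within each age the library lowest in Mki67 was also the lowest in histone messages.

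Induced Esr1 glands had 1189, 1499 and 1206 TPM after 1 week at 18 months, 1328, 1609 and 987 TPM after 6 months, and 804, 1606 and 1535 TPM after 12 months. At 30 months, after 18 months of induction, they had 677, 536 and 333 TPM (515 ± 173). The 30-month libraries lay below every one of the other induced Esr1 libraries.

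Uninduced CYP19A1 glands had 186, 749 and 2193 TPM at 12 months, 366, 513 and 890 TPM at 18 months, and 582, 890 and 619 TPM at 24 months. The library at 186 TPM is the one with the highest share of ribosomal RNA and had 0.49 TPM of Mki67, whereas the one at 2193 TPM had 19.96 TPM of Mki67. Induced CYP19A1 glands had 483, 560 and 633 TPM after 1 week at 18 months, 434, 665 and 688 TPM after 6 months, 832, 797 and 710 TPM after 12 months, and 530, 754 and 673 TPM after 18 months. In all, 16 of 24 Esr1 libraries and 1 of 24 CYP19A1 libraries were above 1000 TPM. Every difference between neighbouring group means in the order by TPM was smaller than the larger of the 2 SDs.

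**Figure D1:**
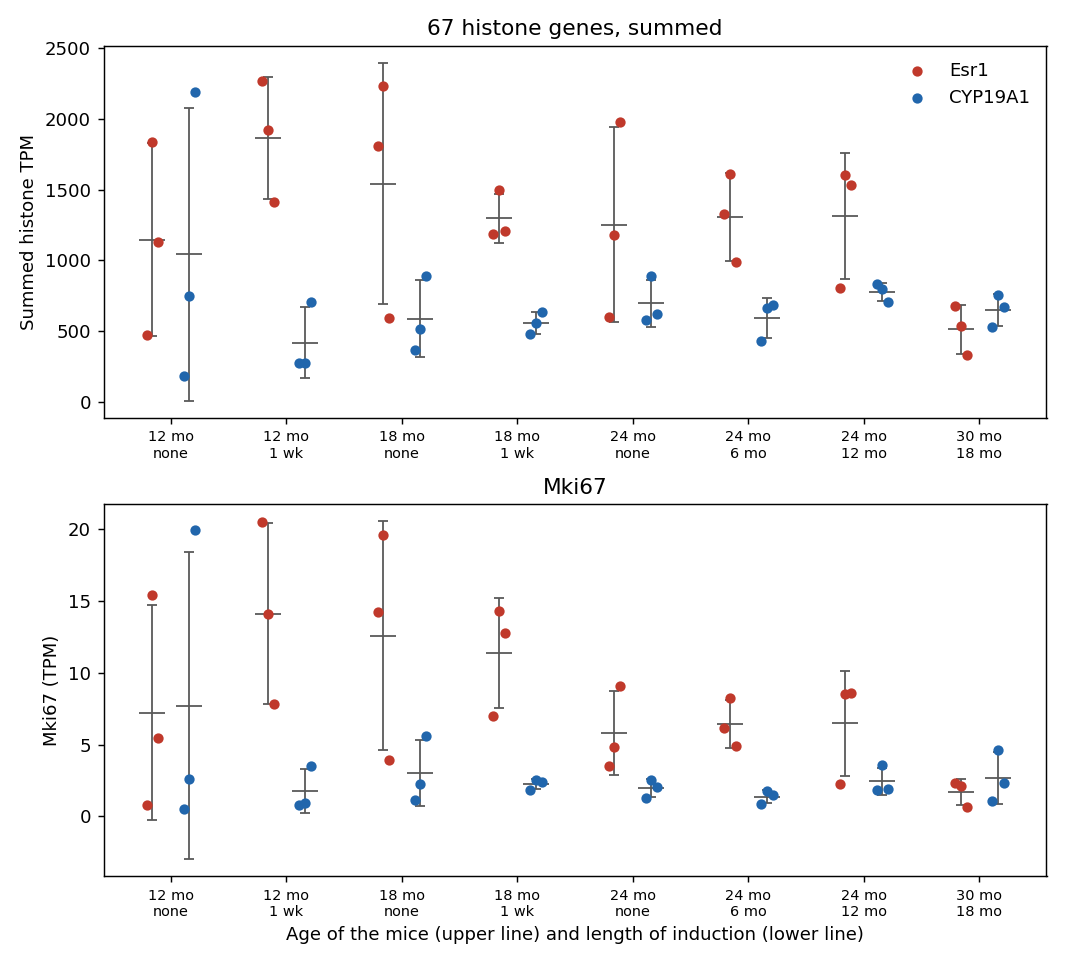
Summed TPM of the 67 histone genes (upper panel) and TPM of Mki67 (lower panel) in each library, by age and length of induction, for Esr1 (red) and CYP19A1 glands (blue). Points are libraries, and bars are the mean ± SD of 3 libraries; the Esr1 glands at 30 months (333 to 677 TPM) lie at the level of the CYP19A1 glands.

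Histone messages followed Mki67 from library to library. Over the 48 libraries, log2 of the summed level and log2 of Mki67 (each plus 1 TPM) had Pearson's r = 0.93 and Spearman's rho = 0.92. Both are descriptions: these values share each library's scaling, and the libraries share groups. After each group's mean was subtracted r was 0.93, so the relation is also seen among libraries of the same age, model and induction. Within groups it was 0.96 among the 12- and 18-month libraries and 0.85 among the 24- and 30-month libraries, whose titles follow another naming pattern. With the group means left in, these were 0.97 and 0.93. Over all libraries but the 2 farthest from the median of Mki67, r was 0.92.

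By model, r was 0.93 in the 24 Esr1 libraries and 0.86 in the 24 CYP19A1 libraries. In CYP19A1 it was 0.79 without the library highest in Mki67. When values were divided by a median-of-ratios factor per library, it was 0.71 and rho was 0.46 over the same 23 libraries. By class, r with Mki67 was highest for H2B (0.94) and H3 (0.94), then H4 (0.92), H1 (0.89) and H2A (0.86). For Top2a, the topoisomerase of dividing cells, r with Mki67 was 0.98.

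**Figure D2:**
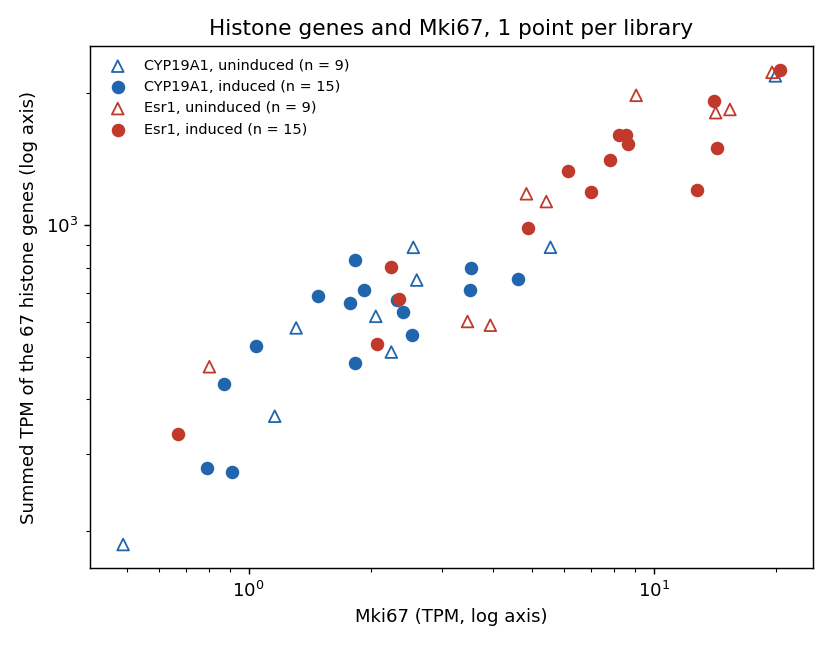
Summed TPM of the 67 histone genes against TPM of Mki67 in 48 libraries, both on log axes. Open triangles are uninduced and filled circles induced glands, red for Esr1 and blue for CYP19A1; the points rise together from 186 TPM at a Mki67 of 0.49 TPM to 2265 TPM at 20.5 TPM.

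Each gene was then fitted on Mki67 within groups, with limma on log2(TPM + 1) and a mean for each of the 16 groups. The slope is the change of the gene per unit change of Mki67 on that scale. Because 1 TPM is added to both, and Mki67 itself was low in many libraries, a slope of 1 need not mean proportion in TPM. With rising Mki67, 61 of the 62 tested members rose and 0 fell (limma, Benjamini-Hochberg adjusted p under 0.05). Among all genes 56.4% rose with Mki67 and 1.28% fell, so a pass was common among genes at large. That background moved with single libraries: leaving out each in turn, 30.8 to 65.8% of all genes passed in either direction, the lowest without uninduced CYP19A1 12-month replicate 1, whereas 59 to 61 members did. The members' median was 0.85 (range 0.19 to 1.26), against 0.18 for all genes tested, whose 95th percentile was 0.42. With 0.1 TPM added in place of 1 TPM, the members' median was 0.78 (range 0.20 to 1.47). With median-of-ratios scaling, which brings the median of all genes from 0.18 to 0.00, the members' median was 0.76 and 55 rose, beside 22% of all genes called in either direction.

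The steepest member was Hist1h2ab, an H2A gene (slope 1.26, SE 0.0706, limma adjusted p = 2.73e-16). Its level was 0.38 TPM in the CYP19A1 library lowest in Mki67 and 49.2 TPM in the CYP19A1 library highest in it. Hist1h2bm, an H2B gene with 16.9% of its 75-base stretches shared, had the smallest adjusted p (slope 1.20, SE 0.0493, limma adjusted p = 8.70e-20). The H2B gene Hist1h2bk had a slope of 1.22, and the linker histone gene Hist1h1a 1.15. Hist1h1b, another linker histone gene, had 1.05. Neither linker gene shares a 75-base stretch with another gene, so reads of these 2 genes are not shared with a copy. These were exceptions among such genes: the 16 tested members that share under 20% of their 75-base stretches had a median slope of 0.42, with 3 above 0.8 and 9 below 0.5.

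The other members of the 12 steepest were Hist1h2ap (1.13, limma adjusted p = 0.0123), Hist1h3c (1.12), Hist1h2bn (1.12), Hist1h3b (1.10), Hist1h3g (1.08), Hist1h2bb (1.08) and Hist1h2bf (1.08). All 12 were Hist1 genes, of H1, H2A, H2B and H3. The steepest H4 genes were Hist1h4b (1.04) and Hist1h4f (1.03).

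The flattest member was Hist1h2ah, an H2A gene that shares 90.03% of its 75-base stretches (slope 0.19, SE 0.125, limma adjusted p = 0.194). It was listed at 0 in the median library. Next came Hist3h2ba (0.20), Hist2h2be (0.21) and Hist1h2bc (0.21). Hist1h2bc and Hist2h2be, with Hist1h1c (0.36), are the 3 members listed as having polyadenylated messages in differentiated cells. All 3 lay below the 95th percentile of all genes, but so did other members that are not on that list. Among those were Hist1h4i (0.34), Hist3h2a (0.33), Hist1h2be (0.32) and Hist1h2ac (0.29). For Hist1h2bc the slope was -0.01 with median-of-ratios scaling (limma adjusted p = 0.951), and for Hist2h2be it was 0.05 (limma adjusted p = 0.449). Hist1h2bc was listed at 22.4, 26.5 and 24.5 TPM in uninduced Esr1 glands at 12 months, in which Hist1h2ab was listed at 1.08, 32.8 and 18.9 TPM. So an H2B gene with nearly the same level in the 3 libraries stood beside an H2A gene that followed their Mki67 of 0.80, 15.4 and 5.43 TPM.

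**Figure D3:**
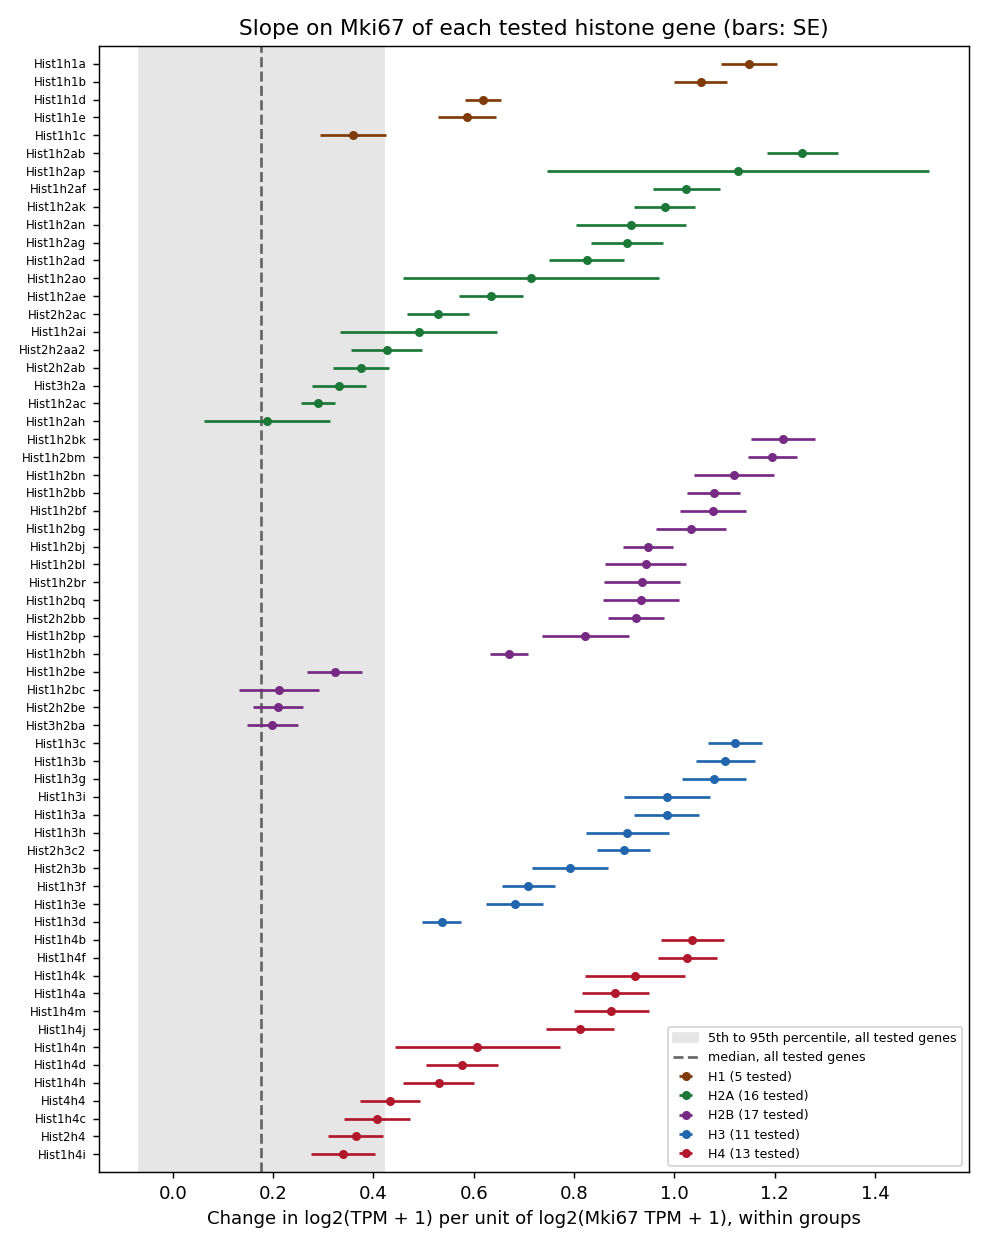
Slope of each of the 62 tested histone genes on Mki67 within groups (log2(TPM + 1) per log2(Mki67 TPM + 1)), by class, with SE. The grey band is the 5th to 95th percentile of all tested genes and the dashed line their median of 0.18; slopes run from 0.19 for Hist1h2ah to 1.26 for Hist1h2ab.

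The slopes differed by class and cluster. The median was 0.93 for H2B, 0.91 for H3, 0.67 for H2A, 0.62 for H1 and 0.61 for H4 genes. It was 0.91 for the 51 tested Hist1 genes and 0.43 for the 11 tested Hist2, Hist3 and Hist4 genes. Of the members with an annotated stem-loop, the 21 tested ones whose transcript ended within 60 bases of it had a median of 0.98. The 8 whose transcript ran on for over 1000 bases had a median of 0.40 and a highest slope of 0.67. Across the 43 tested members with a stem-loop, Spearman's rho between slope and bases after the stem-loop was -0.68, which is a correlation across genes that are not independent. The added 1 TPM weighs most on genes of low TPM. With 0.1 TPM in its place the medians were 0.90 and 0.46 and rho was -0.58. Members whose slopes were high in the 12- and 18-month libraries had high slopes in the 24- and 30-month libraries too (rho 0.83 over 62 members, sharing no library). Fitted on the younger libraries alone 58 members passed, with 48.6% of all genes called, and on the older alone 43 did, with 3.49% called.

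Other genes of the histone pathway rose less steeply. In the same fit 56.4% of all genes rose, and the median slope of all genes was 0.18. The slopes of these lists are given without median-of-ratios scaling. All 12 tested genes of histone message processing passed with a median of 0.28, among them Slbp, the stem-loop binding protein (0.37), Srrt (0.29) and Sympk, a scaffold of the cleavage complex. All 9 genes of histone gene transcription passed (median 0.25), such as Npat, the coactivator of histone loci (0.30), Hinfp, which binds H4 promoters (0.28), and Gon4l (0.22). Of 11 replication-independent histone genes 10 passed (median 0.35), with H2afz and H2afx at 0.56 and H3f3a and H3f3b at 0.36 and 0.46. H1fx was the exception (0.04, limma adjusted p = 0.567). Of 36 proliferation genes all rose (median 0.55), with Top2a at 1.00, Ccnb1 at 0.82 and Pcna at 0.47. On this scale the histone members had a higher median than the proliferation list, a difference that was not tested. The added 1 TPM weighs most on genes of low TPM, and the lists differed in level. The tested members had a median level of 9.83 TPM. Of the proliferation genes only Mcm6, Mcm7 and Pcna averaged more (10.1, 14.8 and 22.6 TPM).

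Markers of cell types moved along with Mki67 as well, in a fit in which 56.4% of all genes rose and 1.28% fell. Within groups 7 of 8 luminal and 6 of 6 basal markers rose (medians 0.57 and 0.50), as did 7 of 7 T cell and 5 of 5 macrophage markers (0.33 and 0.37). No adipocyte and no B cell marker passed, and 6 of 6 skeletal muscle markers fell (median -0.64). Their part in the histone slopes was not tested.

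By Spearman's rho with the summed level over 48 libraries, the 10 other genes most like it were Gm4739 and Gm7488, which are processed pseudogenes, Stmn1, Gm20628, Cdca8, Tacc3, Fen1, Tcf19, Ccnb2 and H2afx. Their rho ran from 0.97 for Gm4739 to 0.94 for Gm7488, against a median of 0.44 over 20147 other genes. Gm20628 overlaps Hist2h3b and Hist2h2bb on the other strand. Mki67 stood at rank 32 with a rho of 0.92.

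In the comparisons between groups the histone genes seldom passed the test. Members passed in 1 of them, the comparison of the models in uninduced glands, averaged over 12, 18 and 24 months. There 6 of 62 members were lower in CYP19A1 than in Esr1 glands and 0 were higher (limma adjusted p under 0.05), with 2.95% of all genes called. The median of the members was -0.80 on the log2 scale against -0.10 for all genes, and 56 of 62 were negative. An unadjusted p under 0.05 was found for 44 members and for 17.7% of all genes. When only the 6 groups compared were fitted, 0 passed in limma, and with no filter on low values 1 passed. The shares of all genes called in these fits are not given here. The summed level was 186 to 2193 TPM (median 619) in 9 CYP19A1 libraries and 475 to 2234 TPM (median 1179) in 9 Esr1 libraries, so the groups overlapped.

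Those that passed were the H2B genes Hist1h2bj, Hist1h2bf and Hist1h2bb, the H4 genes Hist1h4m and Hist1h4j, and the H3 gene Hist1h3d. Hist1h2bj (chr13:22043214-22043676, plus strand) had 2.39, 23.8 and 11.8 TPM in Esr1 and 1.43, 4.40 and 25.4 TPM in CYP19A1 glands at 12 months. At 18 months it had 23.4, 35.7 and 5.76 TPM against 1.34, 2.20 and 4.09 TPM, and at 24 months 7.09, 13.8 and 26.9 TPM against 2.58, 4.45 and 3.94 TPM. The models did not overlap at 18 and 24 months and did at 12 months. The difference was -1.56 (SE 0.375, limma adjusted p = 0.0115).

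Hist1h4m had 34.8, 123 and 83.9 TPM in Esr1 and 5.44, 49.3 and 124 TPM in CYP19A1 glands at 12 months. At 18 months it had 126, 159 and 31.7 TPM against 14.6, 20.9 and 40.6 TPM, and at 24 months 38.2, 76.4 and 134 TPM against 19.8, 43.3 and 28.3 TPM. These overlapped at every age.

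Hist1h2bf had 1.09, 20.6 and 10.6 TPM in Esr1 and 0.26, 4.58 and 27.1 TPM in CYP19A1 glands at 12 months. At 18 months it had 23.8, 27.5 and 4.57 TPM against 1.57, 2 and 5.28 TPM, and at 24 months 6.25, 12.9 and 23.6 TPM against 1.42, 2.03 and 3.13 TPM. Here the models overlapped at 12 and 18 months and not at 24 months.

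Hist1h2bf (chr13:23573736-23574196, minus strand) differed by -1.57, Hist1h2bb by -1.49, Hist1h4m by -1.41, Hist1h4j by -1.30 and Hist1h3d by -0.80 (limma adjusted p from 0.0244 to 0.0432). Mki67 differed by -1.02 (SE 0.381, limma adjusted p = 0.141). Of 37 proliferation genes 2 passed, Bub1b (-1.10) and Tpx2 (-0.83), both lower and both of the mitotic spindle or its checkpoint. Luminal markers summed to 152 to 818 TPM in the Esr1 and 78.4 to 619 TPM in the CYP19A1 libraries, and none of 8 passed. Their part in the difference was not tested.

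Some members went the other way. Hist1h4i, an H4 gene at chr13:22040636-22041362 (minus strand), had 4.43, 8.13 and 4.67 TPM in Esr1 and 11.7, 12.2 and 9.27 TPM in CYP19A1 uninduced glands at 24 months. At 12 months it had 3.99, 5.2 and 5.34 TPM in Esr1 against 2.48, 10.1 and 19.7 TPM in CYP19A1, and at 18 months 4.58, 8.02 and 6.14 TPM against 4.96, 8.56 and 11.6 TPM. The models overlapped at these 2 ages. In the 24- and 30-month libraries, induced ones included, it ranged from 2.79 to 8.13 TPM in Esr1 and from 9.27 to 13.5 TPM in CYP19A1 glands, with no overlap. Over the 3 uninduced ages the difference was 0.63 (SE 0.196, limma adjusted p = 0.072). Hist4h4 differed by 0.48 (SE 0.214, limma adjusted p = 0.228) and Hist1h2bl by 0.79 (SE 0.3999, limma adjusted p = 0.298). Within groups Hist1h4i had a slope on Mki67 of 0.34, yet its rho with Mki67 over all 48 libraries was -0.01.

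With median-of-ratios scaling 32 members passed, 30 lower and 2 higher, and 16.6% of all genes did. The higher ones were Hist1h4i (0.75, limma adjusted p = 1.22e-04) and Hist4h4 (0.59, limma adjusted p = 0.00145). The lower ones then included Hist1h1c (-0.54, limma adjusted p = 1.89e-04) and Hist1h4c (-0.57, limma adjusted p = 4.16e-04). Scaled to nuclear coding genes 18 passed, 16 lower and 2 higher, and 8.41% of all genes did.

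The count of 6 rested on single libraries, and the share of all genes called moved with them. It was 39 without CYP19A1 12-month replicate 3 (6.68% of all genes called), 32 without Esr1 18-month replicate 3 (6.23%) and 29 without Esr1 12-month replicate 1 (3.45%). It was 18 without Esr1 24-month replicate 1 (3.93%) or CYP19A1 18-month replicate 3 (3.33%). It was 1 without replicate 2 or 3 of Esr1 at 12 months, replicate 1 or 2 of Esr1 at 18 months, Esr1 24-month replicate 3, or CYP19A1 24-month replicate 1. In these 6 fits, with 2.03 to 2.39% of all genes called, the gene left was Hist1h2bj. It was 2 without CYP19A1 18-month replicate 1 (Hist1h2bj lower and Hist1h4i higher). It was 3 without Esr1 24-month replicate 2, CYP19A1 18-month replicate 2 or CYP19A1 24-month replicate 2, and these were Hist1h2bj, Hist1h4j and Hist1h4m each time. Without CYP19A1 12-month replicate 1, the library of 67.2% ribosomal RNA, it was 4, Hist1h2bj and Hist1h4m lower and Hist1h4i and Hist4h4 higher. Averaged over 12 and 18 months only, 0 passed in limma and the median of the members was -0.86. At 24 months only, 0 passed and the median of the members was -0.74.

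**Figure D4:**
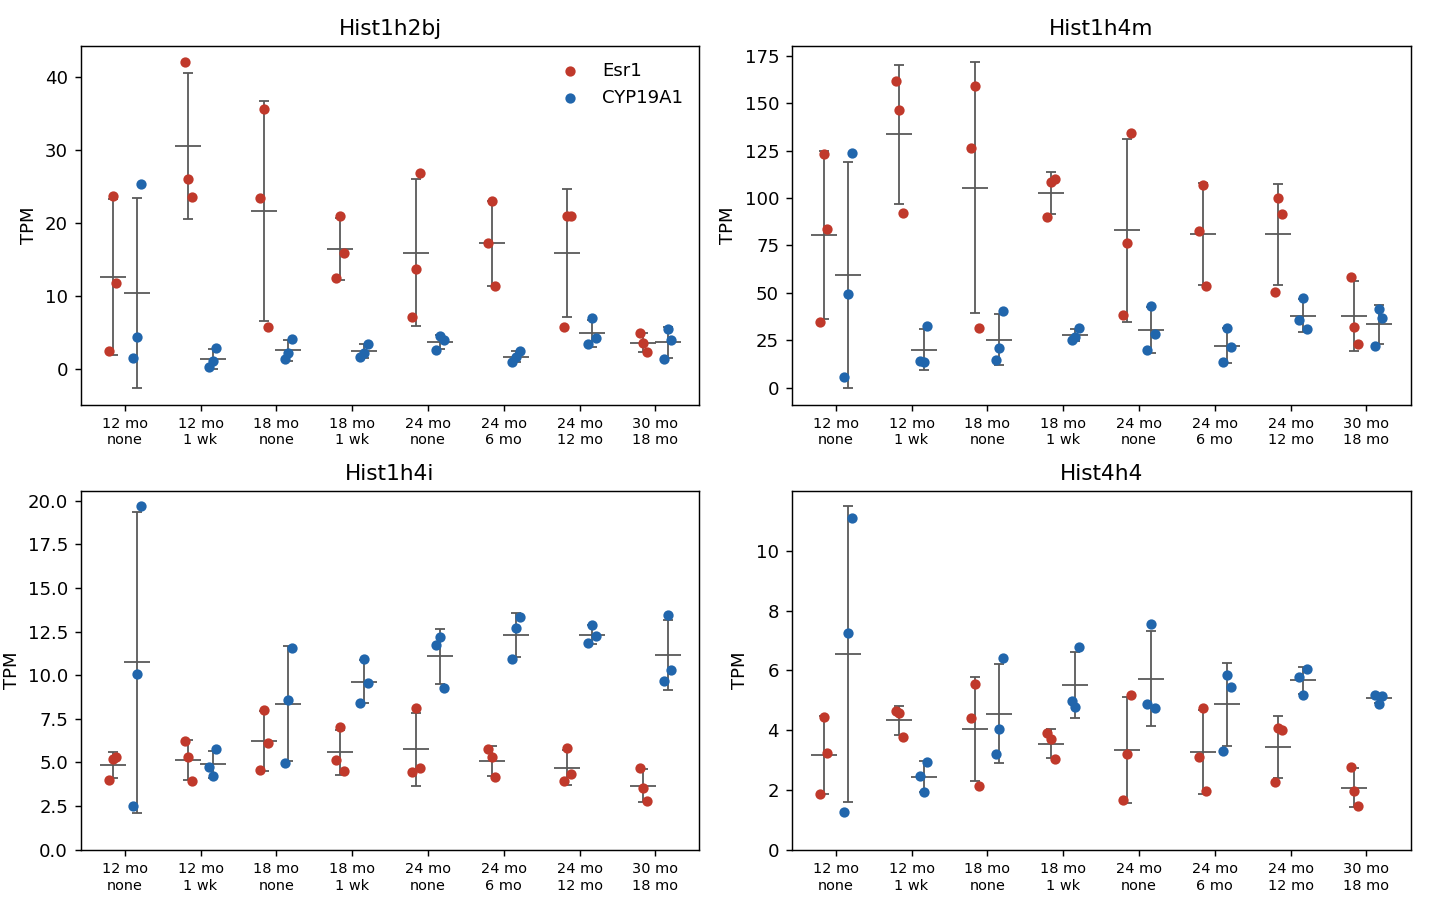
TPM of Hist1h2bj, Hist1h4m, Hist1h4i and Hist4h4 in each library by age and length of induction, Esr1 in red and CYP19A1 in blue, with the mean ± SD of 3 libraries. From 24 months on, Hist1h4i lies at 9.27 to 13.5 TPM in CYP19A1 and at 2.79 to 8.13 TPM in Esr1 glands.

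No member passed in any comparison of induced with uninduced glands. After 1 week at 12 months in Esr1 glands, 0 of 62 passed in limma and 8 had an unadjusted p under 0.05. Of all genes, 0.0099% were called and 5.51% had such an unadjusted p. The members' median was 1.09 against 0.22 for all genes, and 59 were positive. Hist1h2ab had 46.9, 43.8 and 24.2 TPM against 1.08, 32.8 and 18.9 TPM in uninduced glands, which overlap (1.76, 95% interval 0.01 to 3.50, limma adjusted p = 0.754). The largest change was that of Hist1h2ap (2.36, SE 1.65), one of the near-identical copies. In the same comparison Mki67 differed by 1.302 (limma adjusted p = 0.754), and the median of 6 muscle markers was -2.45, all 6 with an unadjusted p under 0.05. Their part in the result was not tested.

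After 1 week at 18 months in Esr1 glands 0 members passed and 1 had an unadjusted p under 0.05 (0% of all genes called, median -0.14). The largest change was in Hist1h4n (-1.75, SE 0.755). After 6 months 0 passed and 1 had an unadjusted p under 0.05 (0% called, median 0.13), and after 12 months 0 and 2 (0.00495% called, median 0.10). In both the largest change was that of Hist1h2ao (3.75 and 3.71, limma adjusted p = 1 in each), and Hist1h2ap changed by -1.96 and -2.09. Summed, these 2 copies had 10.5, 27.7 and 55.5 TPM in uninduced, 32.3, 43.8 and 23.7 TPM after 6 months, and 12.4, 37.6 and 40.7 TPM after 12 months. So the groups that stood apart in Hist1h2ao alone overlapped in the sum. Averaged over the 4 ages and durations, 0 members passed and 1 had an unadjusted p under 0.05 (0% called, median 0.28). For 1 week at 18 months, 6 months, 12 months and the average, 1.25, 1.16, 1.38 and 3.38% of all genes had such a p.

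In CYP19A1 glands, 1 week at 12 months gave a median of -0.78 against -0.32 for all genes, with 59 members negative. There 0 passed, and 4 members and 6.78% of all genes had an unadjusted p under 0.05. Of all genes 0% were called. The largest change was in Hist1h4n (-1.75, SE 0.755, limma adjusted p = 0.548). All 3 induced libraries held 36.7 to 49.8% ribosomal RNA and the uninduced ones 0.122 to 67.2%. Without uninduced replicate 1, the library of 67.2%, 45 members and 12421 of 20209 genes were called, all 45 members lower. Ribosomal RNA and induction cannot be told apart in the induced group.

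At 18 months 1 week gave 0 members and 0 with an unadjusted p under 0.05 (0% called, median 0.03, largest Hist1h2ap at -2.15, SE 1.65). After 6 months 0 passed and 1 had an unadjusted p under 0.05 (0% called, median -0.28, largest Hist1h2ah at -1.34), and after 12 months 0 and 1 (0.0198% called, median 0.16, largest Hist1h2ah at -1.40). Averaged over the 4, 0 passed and 1 had an unadjusted p under 0.05 (0% called, median -0.21). For 1 week at 18 months, 6 months, 12 months and the average, 1.46, 1.29, 1.13 and 1.05% of all genes had such a p. The models' responses to 1 week differed by a median of -0.77 in the members, with 61 of 62 negative. There 0 passed and 2 had an unadjusted p under 0.05 (0% of all genes called, 6.42% at such a p). Without the same library of 67.2% ribosomal RNA 12 members passed there, all lower, among 6988 genes. For long induction the difference between models had a median of -0.16 with 0 passing and 2 with an unadjusted p under 0.05 (0% called, 1.17% at such a p). Its largest member was Hist1h2ao (-4.06, SE 1.35).

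In long-induced Esr1 glands the members lay lower at the later age. At 30 months after 18 months of induction, against 24 months after 12 months of induction, all 62 members were lower, with a median of -1.32 against -0.36 for all genes. Yet 0 passed in limma (0.139% of all genes called), the smallest adjusted p being 0.106. An unadjusted p under 0.05 was found for 38 members and for 15.9% of all genes. Hist2h2aa2 had 86.3, 77.6 and 54.98 TPM at 30 months and 177, 214 and 186 TPM at 24 months, without overlap (-1.41, SE 0.398, limma adjusted p = 0.106). Hist1h4a had 3.19, 3.57 and 1.33 TPM against 7.15, 21.1 and 18.6 TPM (-2.10, SE 0.633, limma adjusted p = 0.145). The largest change was that of Hist1h2ao (-2.55).

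The 30-month libraries held 0.0341, 0.148 and 50.3% ribosomal RNA and the 24-month libraries 0.0284 to 4.54%. Without 30-month replicate 3, the library of 50.3%, the median was -1.01 and 10 members had an unadjusted p under 0.05. Without 24-month replicate 2 or 3 such counts were 8 and 9. The shares of all genes at such a p in these fits are not given here. In the full fit that share was 15.9%, so no excess of members can be read from the smaller counts. As a share of nuclear coding TPM, the summed level was 0.154 to 0.230% at 30 months and 0.245 to 0.488% at 24 months, without overlap. Mki67 differed by -1.37 in that comparison (limma adjusted p = 0.314). White adipocyte markers summed to 1232 to 2304 TPM at 30 months and 3708 to 6210 TPM at 24 months, with 1 of 6 genes called (Lep, lower), and basal markers to 124 to 191 against 271 to 368 TPM. Their part was not tested. Age and length of induction differ together between these groups. In CYP19A1 glands the same comparison had a median of -0.17 (all genes -0.18), the largest change being that of Hist1h2ao (-1.52). There 0 members passed and 0 had an unadjusted p under 0.05 (0% of all genes called, 1.64% at such a p).

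In uninduced glands, 24 against 12 months gave 0 members and 3 with an unadjusted p under 0.05 in Esr1 (0.574% of all genes called, 7.68% at such a p, median 0.24). The largest changes were in the 2 copies, Hist1h2ap (3.38) and Hist1h2ao (-3.12). Hist2h2be, an H2B gene, had 1.81, 2.08 and 2.72 TPM at 24 and 4.66, 4.68 and 3.48 TPM at 12 months, without overlap (-0.72, SE 0.243, limma adjusted p = 0.256). It passed with median-of-ratios scaling (-0.63, limma adjusted p = 0.0199) and with scaling to nuclear coding genes (-0.70, limma adjusted p = 0.0377). The shares of all genes called under these scalings are not given here. In CYP19A1 glands 0 members passed and 0 had an unadjusted p under 0.05 (4.24% called, 14.65% at such a p, median -0.16), with Hist1h4b at -1.01 (SE 0.721). There all 6 skeletal muscle markers rose, with a median of 4.02, and their part was not tested.

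**Figure D5:**
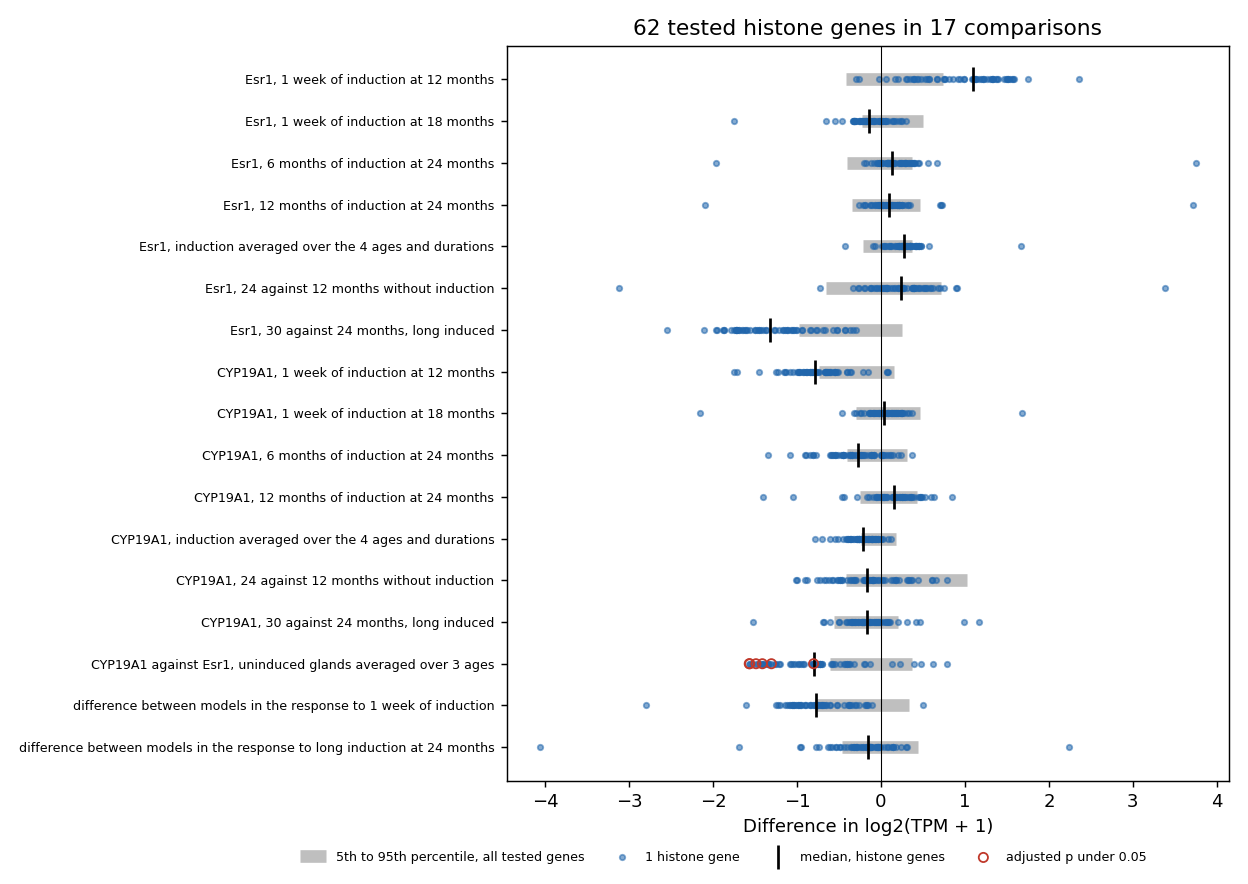
Difference in log2(TPM + 1) of the 62 tested histone genes in 17 comparisons; grey bars give the 5th to 95th percentile of all tested genes, black ticks the histone median and red rings the genes past an adjusted p of 0.05. Rings appear for the 6 genes lower in uninduced CYP19A1 glands, and the median is lowest, at -1.32, for Esr1 glands at 30 against 24 months.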

How the data were processed

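RNA from 48 glands was rRNA-depleted, made into stranded libraries and read as single ends of 75 bases, with at least 50 M reads stated, per the labels' protocols. The authors deposited TPM per gene. Named in the submitters' processing notes are RSEM 1.3.1 and STAR 2.7.9a, build mm10, and for read quality and trimming FastQC 0.11.9 with Trim Galore 0.6.5. The annotation release and the handling of reads that match several genes are not given in the sources used here. TPM keep no depth, so no counting interval is given.

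Genes that reached 1 TPM in 3 or more libraries (20209 genes, 62 members) were fitted as log2(TPM + 1) with limma 3.58.1 (R 4.3.3; trend, 1 mean per group, two-sided, Benjamini-Hochberg over all genes, threshold 0.05). The fit on Mki67 left out Mki67 itself. Fits were tested on simulated data. Descriptions used Python 3.11.15, pandas 2.3.3 and scipy 1.17.1. Positions and transcripts are those of GENCODE M21 (mm10), and promoters those of RefSeq.

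The members and lists were chosen with earlier results of these data known. Named were the 2 most abundant members of each class, the 3 with the highest and lowest coefficient of variation, in each comparison the members that passed (at most 12) or the member of largest change, 3 short sublists (linker, polyadenylated, testis), Mki67, leading or called genes of 4 pathway lists, and the 10 genes most like the sum. Other members named were chosen after their values were seen. Of the 19 lists, fibroblast (4 of 6 higher with Mki67), endothelial (1 of 5), plasma cell (3 of 6), erythroid (0 of 5) and keratinocyte markers (0 of 4 tested) are not described further. Of all genes 56.4% were higher with Mki67. The alternatives tried were other scalings, pseudocount and filter, a replicate block, fits of fewer groups and leaving out each library.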

Additional observations from a re-analysis of the deposited data

How the results depend on the processing

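The alternatives changed the calls in 4 comparisons. For uninduced CYP19A1 against Esr1 glands 6 members passed. The count was 32 with median-of-ratios scaling, 18 scaled to nuclear coding genes and 1 with no filter on low values (Hist1h2bj). It was 14 with a replicate block and 0 when only the 6 groups compared were fitted. When each library was left out it was 1 to 39, with 2.03 to 6.68% of all genes called. In fits chosen after seeing the data the count was 16 without the libraries over 10% ribosomal RNA (14 lower, 2 higher). It was 0 within 12 and 18 months or within 24 months. The shares of all genes called with a replicate block, with no filter or without these libraries are not given. Those counts therefore have no background here. For Esr1 at 24 against 12 months, 1 member (Hist2h2be) passed with either scaling, for which the share of all genes called is not given. Leaving out each library gave 0 to 45 members for 1 week of CYP19A1 induction at 12 months and 0 to 12 for the difference between models after 1 week, the high values each without the same library. In the other group comparisons no member passed under any alternative. With Mki67, 61 members rose, beside 56.4% of all genes. It was 59 with a replicate block and 59 to 61 with each library left out (6217 to 13294 genes called). In a fit chosen after seeing the data, 56 rose without the libraries over 10% ribosomal RNA. The share of all genes called with the block or without these libraries is not given. The slope of Hist1h2bc was -0.0097 with median-of-ratios scaling, and that of Hist1h2ao was -0.27 in the 24- and 30-month libraries alone. The r of the sum with Mki67 (0.93) was 0.81 for the Hist2 to Hist4 genes alone, 0.92 with a replicate block and 0.93 to 0.94 with each library left out.

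Replicate numbers did not pair libraries. Deviations from group means of same-numbered libraries had a median correlation of 0.01 over 360 pairs, against -0.01 over 720 pairs of other numbers. The causes of these changes were not tested. Without read counts the precision of low members cannot be given.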
